A study of Mus musculus with 4 samples.

Results

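The DNA replication machinery was followed in 46C mouse embryonic stem (ES) cells after knockdown of Atad2, a chromatin-bound AAA ATPase with a bromodomain. The list holds 49 genes, listed by name for their known part in licensing origins, unwinding DNA, synthesising both strands and supplying nucleotides. The rule used no measured value, although earlier results of these data were known when the list was made. Of these, 46 had a transcript that could be named and were tested among 10826 genes in all. Orc2, Gins2 and Rfc4 have no value here, because their transcripts lie in loci shared with other coding genes (Nif3l1 and Ppil3 for Orc2, Gse1 and Gm20388 for Gins2, Eif4a2 for Rfc4) and could not be told from them.

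The cells carried a TAP tag knocked into Atad2 and came from 1 chosen clone, in the control libraries as well as in the knockdown libraries. They were grown on gelatin with LIF and serum and were transfected with an inactive siRNA (si-ctrl) or with siRNA against Atad2 (si-Atad2). Each condition had 2 libraries, numbered 1 and 2, which gives 4 libraries of RNA-seq. The study speaks of different active siRNAs and of repeat sequencing of each RNA, whereas the labels speak of replicates, so which siRNA went into which library is not stated and the p-values measure only the spread between these libraries, which may be technical. The deposited values are FPKM (sequenced fragments per kilobase of a transcript, relative to the size of the library), so levels can be compared between genes. Read counts are not given in these values, and the depth is therefore unknown here. The authors' 95% interval for the main transcript of a replication gene spanned, as a median over genes and libraries, ±3.54% of its FPKM (range 1.29% to 8.89%).

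Replication starts where the origin recognition complex, Cdc6 and Cdt1 load the ring-shaped MCM2-7 helicase onto DNA. Cdc45 and the GINS complex turn that ring into an active helicase, polymerase alpha-primase lays primers, and polymerases delta and epsilon extend them while held on DNA by the sliding clamp PCNA, which replication factor C (RFC) opens and closes. ES cells divide rapidly and spend much of their cycle in S phase, and many genes of this machinery are textbook targets of the E2F transcription factors.

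Atad2 itself was reduced in both knockdown libraries. Its level was 34.1 FPKM in si-ctrl 1 and 36.0 in si-ctrl 2, against 10.1 in si-Atad2 1 and 13.0 in si-Atad2 2, so that 29.6% and 36.2% of the paired control level remained. Its mean log2 ratio was -1.53 ± 0.077 (SE, n = 2 pairs, adjusted p = 6.9e-05 by limma with Benjamini-Hochberg adjustment). ES cell markers were high in every library, with a summed level of 8 genes of 2799 and 2826 FPKM in si-ctrl and 2549 and 2629 FPKM in si-Atad2. Both si-Atad2 sums were below both si-ctrl sums, and their part in the results was not tested. Of the fibroblast feeder markers, 6 of 8 were below 1 FPKM in all libraries, and the summed level of the feeder markers was 7.83 and 8.62 FPKM in si-ctrl and 7.28 and 8.77 FPKM in si-Atad2. Of 10 markers of differentiated lineages, 6 were below 1 FPKM in all libraries, with a summed level of 7.61 to 7.83 FPKM in each library.

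Only 1 of the 46 replication genes passed the test, Rfc3, which rose. The other 45 were not called. Of the 46 mean log2 ratios, 42 lay within ±0.2, as did 9659 of all 10826 genes tested. Across all genes tested, 1.5% were called in either direction (162 genes), 1.17% were called higher and 0.323% lower, and 1 of 46 replication genes is 2.17%. At an unadjusted p under 0.05 stood 6 replication genes (13.0%), Orc5, Pold2, Pcna, Rfc3, Atad5 and Rrm2, against 15.7% of all genes tested.

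The members' summed level was 2697 FPKM in si-ctrl 1, 2717 in si-ctrl 2, 2735 in si-Atad2 1 and 2673 in si-Atad2 2. In these values the si-Atad2 libraries lay on either side of the si-ctrl libraries. The sum over all genes tested was 283682 and 282491 FPKM in si-ctrl, against 276899 and 275193 FPKM in si-Atad2. Both si-Atad2 sums over all genes were lower, and the tables were normalised separately. The place of the members' sums therefore depends on the scaling. The median log2 ratio of the 46 genes was 0.01, with 0.05 in pair 1 (si-Atad2 1 over si-ctrl 1) and -0.03 in pair 2 (si-Atad2 2 over si-ctrl 2), beside -0.01, 0.00 and -0.02 over all genes tested. The interquartile range of their mean log2 ratios was 0.10, and that of all genes 0.15. The replication genes were also the more highly expressed, with a median si-ctrl level of 47.7 FPKM against 9.76 FPKM over all genes.

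Both si-Atad2 libraries lay above both si-ctrl libraries for 12 replication genes (26.1%, against 22.3% of all genes tested) and below them for 6 genes (13.0%, against 26.8%). The 12 were Orc1, Orc3, Mcm3, Gins3, Gins4, Pola1, Pole3, Rfc2, Rfc3, Atad5, Clspn and Rrm2, and the 6 were Mcm2, Pola2, Pold1, Pold2, Pcna and Lig1. The share above the controls is near the background, and the share below them is under it. Neither share was tested, and the rule sets levels across tables normalised separately.

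**Figure D1:**
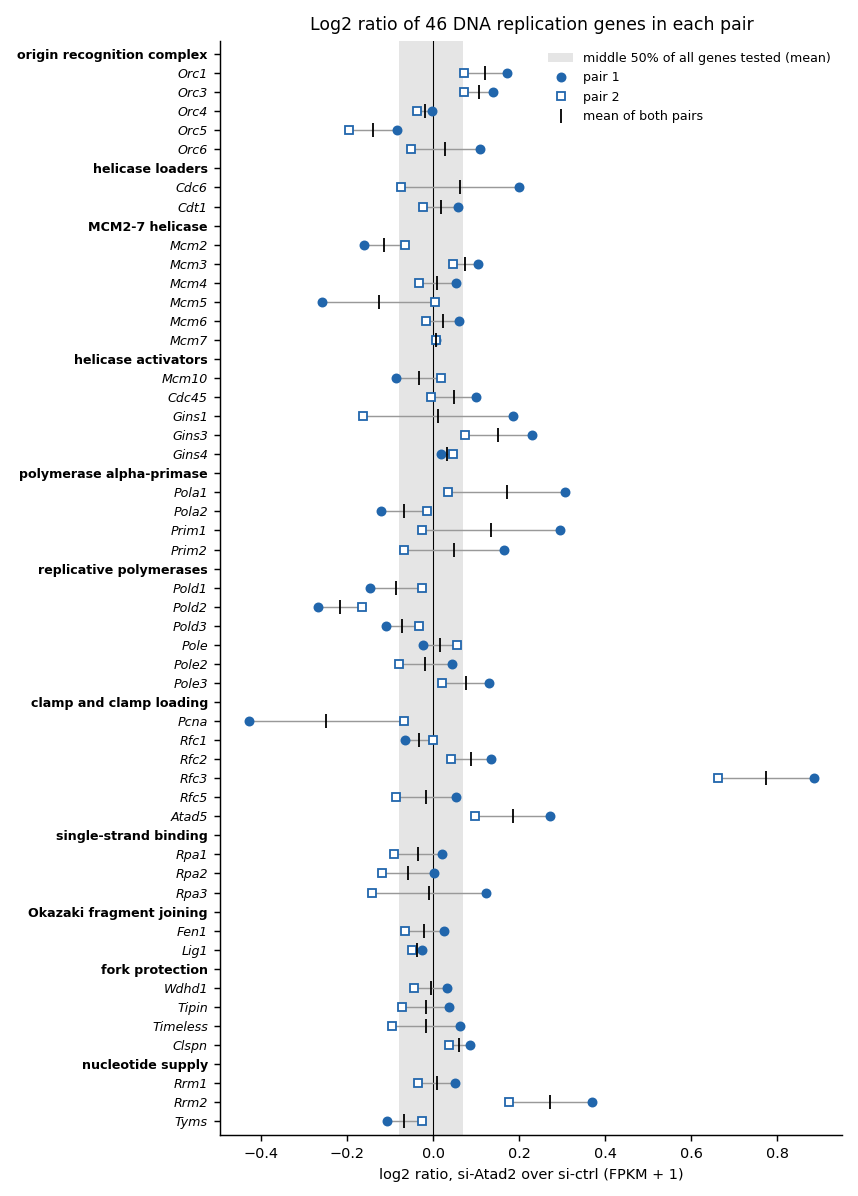
Log2 ratio of si-Atad2 over si-ctrl (FPKM plus 1) for 46 DNA replication genes, grouped by complex. Filled circles are pair 1, open squares pair 2, ticks the mean of both pairs and the grey band the middle 50% of all genes tested. Rfc3 stands apart at 0.89 and 0.66, and Rrm2, Pcna and Pold2 follow at a distance.

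Among the genes of the clamp and its loader, Rfc3 was the one that was called. Rfc3 (ENSMUSG00000033970, chr5:151642756-151651242, minus strand, GRCm38) encodes a small subunit of the RFC ATPase that loads the clamp and is also shared by the alternative loaders. Its level was 20.1 FPKM in si-ctrl 1 and 20.7 in si-ctrl 2, against 38.0 in si-Atad2 1 and 33.4 in si-Atad2 2. Both knockdown libraries were well above both controls, which differed from each other by 0.04 on the log2 scale. Its log2 ratios were 0.89 for si-Atad2 1 over si-ctrl 1 and 0.66 for si-Atad2 2 over si-ctrl 2, and their mean was 0.77 ± 0.072 (SE, adjusted p = 0.0019 by limma), and the si-Atad2 level was 189% and 161% of its paired control. This was the 8th highest mean log2 ratio of 10826 genes. The call was lost when si-ctrl 1 was left out (log2 ratio 0.75) and when si-ctrl 2 was left out (0.79). In those fits the si-Atad2 libraries alone gave the spread within a condition. With si-Atad2 1 or si-Atad2 2 left out the log2 ratio was 0.68 or 0.86, in fits where the controls alone gave the spread within a condition and where 763 and 2019 of all genes were called, so their p-values say little about Rfc3. These fits set levels across tables normalised separately.

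The rise of Rfc3 came from its main transcript. The 1215-base transcript, which made up 93.6% of the gene's FPKM, measured 18.8 FPKM in each si-ctrl library, where the upper bound of the authors' 95% interval was 19.97 and 19.98. It measured 36.1 FPKM in si-Atad2 1 and 31.3 in si-Atad2 2, where the lower bound was 34.5 and 29.8. The intervals of the 2 conditions did not overlap. Those of the si-Atad2 libraries did not overlap each other either (upper bound 32.9 in si-Atad2 2). Such intervals give the counting precision of a single library and not the spread between libraries. The 3 minor transcripts of 2732, 1062 and 647 bases stayed at or below 1.07 FPKM in every library. None of the 50-base stretches of the longest Rfc3 coding transcript occurs in a transcript of another gene.

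The upstream sequence of Rfc3 is shown because it is the member that was called, beside that of Rrm2, the member with the next highest ratio. Both runs are from RefSeq on GRCm38.p6, are written 5′ to 3′ on the gene's strand and stop before the first annotated start. Capitals mark CCAAT or CCGGAAG (a core of ETS family sites) on either strand.
Rfc3, chr5:151651243-151651458, minus strand: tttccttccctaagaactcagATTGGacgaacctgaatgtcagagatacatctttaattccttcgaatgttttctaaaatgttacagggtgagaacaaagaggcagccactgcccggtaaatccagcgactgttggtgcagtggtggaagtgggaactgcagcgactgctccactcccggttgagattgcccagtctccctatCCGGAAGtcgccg
Rrm2, chr12:24708004-24708240, plus strand: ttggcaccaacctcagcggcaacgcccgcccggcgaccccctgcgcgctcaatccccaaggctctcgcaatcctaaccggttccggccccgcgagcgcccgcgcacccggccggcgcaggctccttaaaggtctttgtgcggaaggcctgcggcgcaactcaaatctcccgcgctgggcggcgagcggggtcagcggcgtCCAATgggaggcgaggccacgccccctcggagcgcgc

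The partners of Rfc3 in the loader were not called. Rfc2, another small subunit, measured 60.8 and 59.5 FPKM in si-ctrl and 66.8 and 61.3 in si-Atad2 (mean log2 ratio 0.09, adjusted p = 0.52). Rfc5 measured 50.4 and 52.8 FPKM in si-ctrl and 52.3 and 49.7 in si-Atad2 (mean log2 ratio -0.02, adjusted p = 0.93). Rfc1, the large subunit that completes the replicative loader, measured 39.3 and 40.4 FPKM in si-ctrl and 37.5 and 40.4 in si-Atad2 (-0.03, adjusted p = 0.84). Rfc3 was thus the lowest of the 4 measured subunits in the controls, and its level relative to the mean of Rfc2 and Rfc5 was 0.361 and 0.368 in si-ctrl against 0.637 and 0.601 in si-Atad2. Of the 50-base stretches of the longest annotated transcript, 19.8% for Rfc2 (4995 bases) and 23.0% for Rfc5 (2796 bases) also occur in other genes. The main transcripts measured here have 1518 and 1730 bases, and their own share was not computed. These denominators are therefore uncertain to an unknown extent.

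Pcna, the sliding clamp, and Atad5, the subunit of the complex that takes the clamp off DNA, did not pass the test. Pcna measured 109 FPKM in si-ctrl 1, 97.0 in si-ctrl 2, 80.6 in si-Atad2 1 and 92.5 in si-Atad2 2. Both si-Atad2 values were below both controls, with log2 ratios of -0.43 in pair 1 and -0.07 in pair 2 (mean -0.25 ± 0.082, adjusted p = 0.19 by limma). Of the 50-base stretches of its longest annotated transcript (1518 bases), 31.8% also occur in the pseudogene Pcna-ps2. The share for the measured transcript of 1260 bases was not computed, so the value of Pcna is uncertain to an unknown extent. Atad5 measured 15.5 and 15.7 FPKM in si-ctrl and 18.9 and 16.9 in si-Atad2 (0.27 and 0.10 in the pairs, mean 0.18, adjusted p = 0.26). The level of Pcna over that of Atad5 was 7.03 and 6.17 in si-ctrl, 4.26 in si-Atad2 1 and 5.47 in si-Atad2 2.

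**Figure D2:**
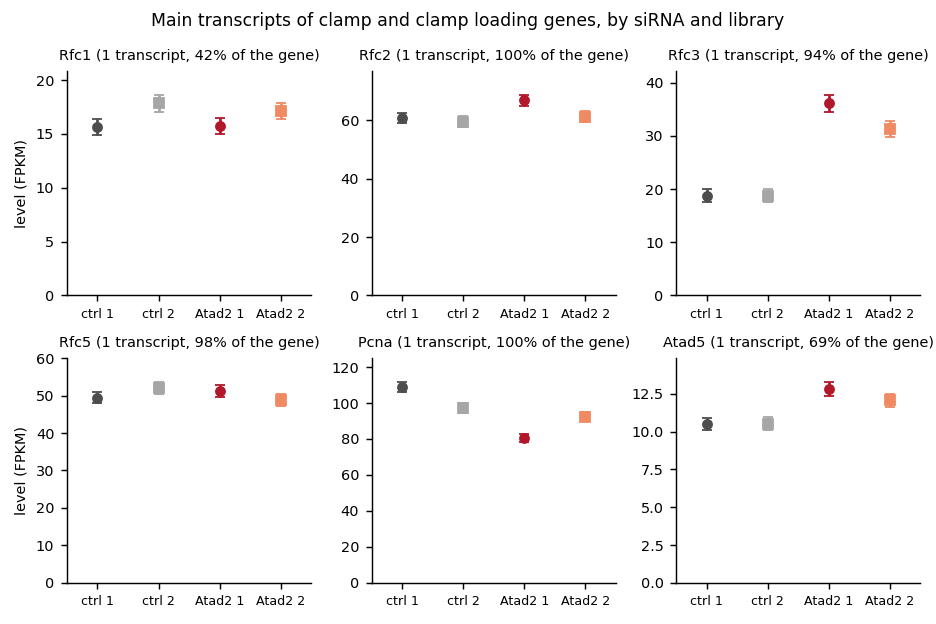
Level in FPKM of the main transcript of 6 clamp and clamp loading genes in both control libraries (grey) and both knockdown libraries (red and orange), with the authors' 95% intervals as bars and every axis starting at 0. Rfc3 is at 18.8 in both controls and at 36.1 and 31.3 after knockdown, while Rfc2 lies between 59.5 and 66.8 in all libraries.

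The nucleotide suppliers included the member nearest to the threshold. Rrm2, the regulatory subunit of ribonucleotide reductase that is made in S phase, measured 92.3 FPKM in si-ctrl 1 and 94.3 in si-ctrl 2, against 119.6 in si-Atad2 1 and 106.6 in si-Atad2 2. Both si-Atad2 libraries were higher, by 0.37 and 0.17 on the log2 scale (mean 0.27 ± 0.065), and the adjusted p was 0.084 by limma. Of the 50-base stretches of its longest transcript, 6.48% also occur in other gene models. Rrm1, the catalytic subunit, measured 56.4 and 58.3 FPKM in si-ctrl and 58.4 and 56.9 in si-Atad2, and Rrm2 over Rrm1 was 1.64 and 1.62 in si-ctrl against 2.05 and 1.87 in si-Atad2. Tyms, which makes thymidylate, measured 50.2 and 45.5 FPKM in si-ctrl and 46.5 and 44.7 in si-Atad2 (-0.07, adjusted p = 0.64).

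In the origin recognition complex, none of the 5 measured subunits was called. Orc5 had the highest level of the 5 and the lowest ratio, with 88.6 FPKM in si-ctrl 1, 108.0 in si-ctrl 2, 83.5 in si-Atad2 1 and 94.2 in si-Atad2 2 (mean -0.14, adjusted p = 0.30). Its libraries overlapped between the conditions, and its 810-base transcript carried the spread (54.6, 73.2, 48.1 and 58.7 FPKM in the same order), whereas its 2059-base transcript measured 34.0, 34.8, 35.3 and 35.5 FPKM. Orc1, the subunit whose level varies with the cell cycle, measured 31.2 and 32.4 FPKM in si-ctrl and 35.3 and 34.1 in si-Atad2 (0.12, adjusted p = 0.41). Orc4 had the lowest level, 13.8 and 15.0 FPKM in si-ctrl and 13.8 and 14.6 in si-Atad2. The remaining subunits Orc3 and Orc6 had mean log2 ratios of 0.11 and 0.03.

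Neither helicase loader was called. Cdt1 measured 64.5 and 61.3 FPKM in si-ctrl and 67.1 and 60.2 in si-Atad2, and Cdc6 measured 15.8 and 16.7 FPKM in si-ctrl and 18.3 and 15.8 in si-Atad2. Their mean log2 ratios were 0.02 and 0.06 (adjusted p = 0.92 and 0.76 by limma), and for each the sign differed between the pairs.

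The 6 subunits of the MCM2-7 helicase were among the most abundant members, at si-ctrl levels of 73.0 to 170 FPKM. Mcm3 was the highest, with 167 and 173 FPKM in si-ctrl and 179.5 and 178.5 in si-Atad2 (0.07, adjusted p = 0.55). Mcm7 was the lowest, with 74.2 and 71.7 FPKM in si-ctrl and 74.5 and 72.0 in si-Atad2, and its log2 ratio was 0.01 in both pairs. Of the 50-base stretches of its longest transcript, 34.2% also occur in other gene models, its neighbours Cops6 and Ap4m1 among them. Mcm5 had the lowest ratio, with 161 and 151 FPKM in si-ctrl and 135 and 151 in si-Atad2, a difference seen in pair 1 alone (-0.26 against 0.01 in pair 2). Mcm2 (-0.11), Mcm4 (0.01) and Mcm6 (0.02) were not called. As the protein ring holds the subunits in equal number, their RNA levels can be set side by side, and Mcm3 over Mcm7 stayed between 2.25 and 2.48 in the 4 libraries.

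Of the helicase activators, Mcm10, Cdc45, Gins1, Gins3 and Gins4 were measured and none was called. Gins3 was the least abundant of all 46 genes, with 8.81 and 9.02 FPKM in si-ctrl and 10.5 and 9.55 in si-Atad2 (0.15, adjusted p = 0.37). Mcm10 was the most abundant activator, with 52.3 and 50.0 FPKM in si-ctrl and 49.2 and 50.6 in si-Atad2 (-0.03). Gins1 had ratios of opposite sign in the pairs, 0.19 and -0.16. Gins4 exceeded Gins3, its partner in the tetramer, 4.60- to 5.41-fold in each library.

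No subunit of polymerase alpha-primase was called, and for 3 of the 4 the ratio was larger in pair 1. Pola1, the catalytic subunit, measured 20.7 and 22.3 FPKM in si-ctrl and 25.8 and 22.8 in si-Atad2, or 0.31 and 0.04 on the log2 scale (mean 0.17, adjusted p = 0.33). Prim1, the primase that makes the RNA primer, measured 57.5 and 61.3 FPKM in si-ctrl and 70.7 and 60.2 in si-Atad2, or 0.29 and -0.03 (mean 0.13, adjusted p = 0.45). Pola2 measured 34.2 and 32.8 FPKM in si-ctrl and 31.4 and 32.5 in si-Atad2, and Prim2 had ratios of 0.17 and -0.07. The 4 subunits together summed to 141 and 146 FPKM in si-ctrl, 160 in si-Atad2 1 and 143 in si-Atad2 2.

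For the polymerases that extend both strands, Pold2 was the lowest in ratio. Pold2, an accessory subunit of polymerase delta, measured 95.6 and 90.7 FPKM in si-ctrl and 79.3 and 80.8 in si-Atad2. Both si-Atad2 libraries were below both controls (-0.27 and -0.17, mean -0.22 ± 0.059), and the adjusted p was 0.12 by limma. The catalytic subunit Pold1 (-0.15 and -0.03) and the subunit Pold3 (-0.11 and -0.03) also had negative ratios in both pairs, with adjusted p of 0.56 and 0.65. Pold3, the least abundant, measured 16.4 and 17.0 FPKM in si-ctrl and 15.1 and 16.6 in si-Atad2. In polymerase epsilon, Pole3, a histone-fold subunit, measured 33.6 and 33.3 FPKM in si-ctrl and 36.9 and 33.8 in si-Atad2 (0.08), while the catalytic subunit Pole and Pole2 had mean log2 ratios of 0.02 and -0.02.

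The genes that bind single strands, join Okazaki fragments and protect the fork had small ratios, and none was called. Rpa1, the large subunit of replication protein A, measured 160 and 165 FPKM in si-ctrl and 162 and 155 in si-Atad2. Rpa2 measured 67.5 and 67.6 FPKM in si-ctrl and 67.5 and 62.2 in si-Atad2, and Rpa3 29.8 and 33.0 FPKM in si-ctrl and 32.5 and 29.8 in si-Atad2. The 3 mean log2 ratios were -0.04, -0.06 and -0.01. Although the protein is a heterotrimer, Rpa1 RNA exceeded Rpa3 RNA 4.98- to 5.36-fold per length in every library, with 16.6% of the 50-base stretches of Rpa3 also found in other gene models.

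Lig1, the ligase that seals Okazaki fragments, measured 76.2 and 77.3 FPKM in si-ctrl and 74.8 and 74.7 in si-Atad2 (-0.04). Fen1, the flap nuclease, measured 43.0 and 43.1 FPKM in si-ctrl and 43.7 and 41.2 in si-Atad2 (-0.02), and 81.2% of the 50-base stretches of its longest transcript also occur in Tmem258 or Gm10143. All 4 fork protection genes stayed within ±0.1 in both pairs, as did 19 of the 46 replication genes and 3551 of all 10826 genes tested. Tipin measured 133 and 137 FPKM in si-ctrl and 137 and 130 in si-Atad2, and Clspn, which transmits the checkpoint signal, 12.3 and 12.2 FPKM in si-ctrl and 13.1 and 12.6 in si-Atad2. Timeless, the partner of Tipin, and Wdhd1, which links the helicase to polymerase alpha, had mean log2 ratios of -0.02 and -0.01. For a difference of either sign in these bulk libraries, a changed share of cells in S phase and changed RNA per cell could not be told apart.

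**Figure D3:**
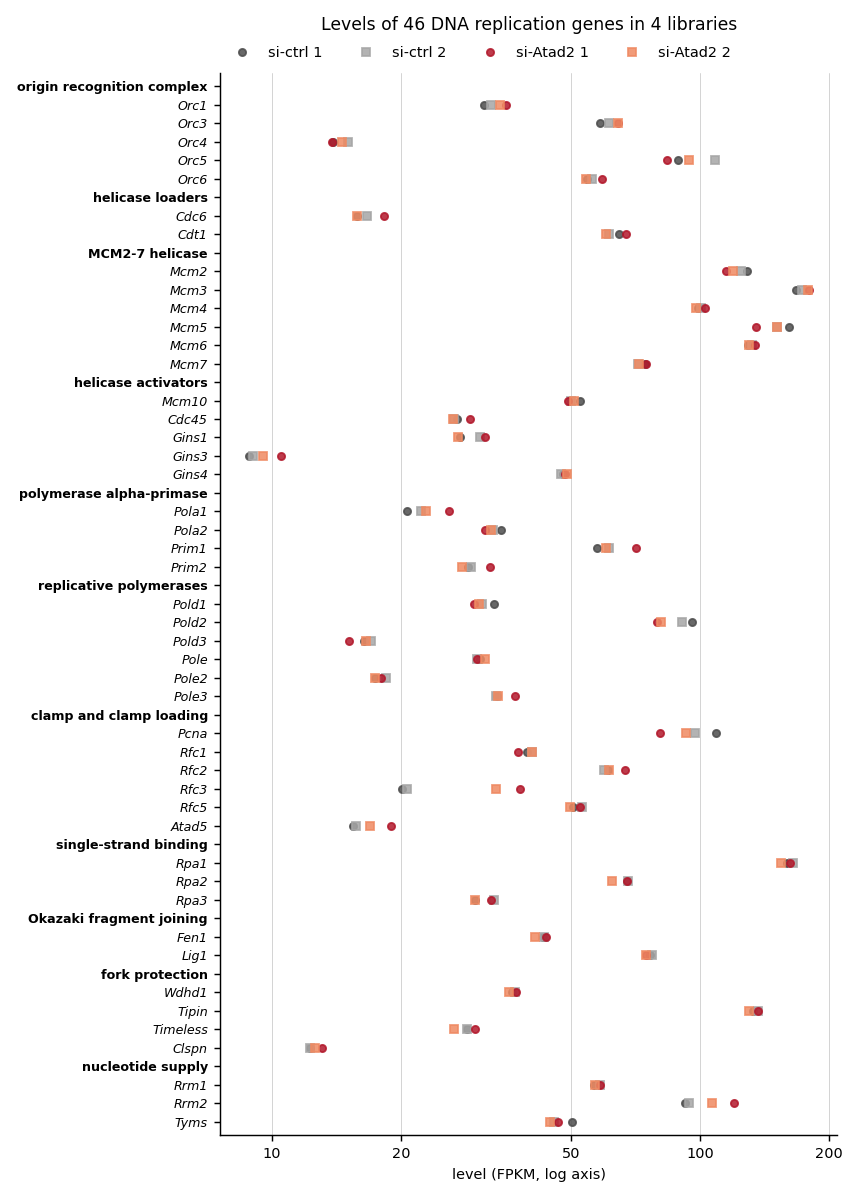
Level of each of the 46 DNA replication genes in the 4 libraries, in FPKM on a log axis, grouped by complex. Grey symbols are si-ctrl and red and orange symbols si-Atad2. The genes span from about 9 FPKM (Gins3) to 170 FPKM (Mcm3).

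These differences were read against the spread between libraries of 1 condition. For the 46 genes, the interquartile range of the log2 differences between si-ctrl 2 and si-ctrl 1 was 0.08, and that between si-Atad2 2 and si-Atad2 1 was 0.15. The pairs gave 13 genes higher in both (28.3%, against 28.6% of all genes tested), 11 lower in both (23.9%, against 34.1%) and the others divided. When si-Atad2 2 was left out, 10 of the 46 replication genes were called (21.7%, against 18.6% of all genes tested in that fit), with Atad5, Gins3, Pola1, Prim1, Rfc3 and Rrm2 higher and Mcm5, Orc5, Pcna and Pold2 lower, and when si-ctrl 1 or si-ctrl 2 was left out 0 were called by limma (4 and 4 at an unadjusted p under 0.05), where 11 and 10 of all genes were called (0.102% and 0.0924%). Without si-Atad2 1, Rfc3 was the 1 replication gene called, against 7.05% of all genes.

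Sequences resembling E2F sites were common at the starts of these genes. The octamers TTTCCCGC, TTTGGCGC, TTTCGCGC and TTTGCCGC were searched on both strands from 250 bases before to 50 after the RefSeq start, where overlapping matches were counted separately. Only the first RefSeq start listed for a gene was used. For Mcm7, Cdc6 and Timeless the whole window lay inside the gene as annotated by GENCODE, and they were counted all the same. Of the 41 replication genes with a promoter entry, 16 (39.0%) held at least 1 octamer, against 2.32% of all 27025 promoters and 4.46% of those of genes tested here. In the same window CCAAT was found for 24 of the 41 genes (58.5%, against 37.9% of all promoters and 39.5% of those of genes tested) and CCGGAAG for 15 (36.6%, against 9.12% and 19.0%). The octamer occurred for 4 of 5 MCM2-7 genes and both helicase loaders, and for none of the 3 single-strand binding, 2 Okazaki fragment joining and 3 nucleotide supply genes.

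Replication genes with and without an octamer were set side by side. Of the 16 with an octamer, 9 were higher in both pairs and 2 lower in both, and of the 23 tested genes whose promoter held none, 2 were higher in both and 9 lower in both. The median log2 ratio was 0.09 and 0.02 in the pairs with an octamer and 0.02 and -0.05 without. Over all genes tested the shares were closer, with 25.7% of 382 genes with an octamer and 28.5% of 8178 genes without it higher in both pairs, and 35.3% and 33.9% lower in both. The split was noticed after the values had been seen and was not tested. After rescaling to TPM it was 11 higher and 1 lower with an octamer, and 5 higher and 4 lower without. By median of ratios it was 8 and 4 with an octamer and 2 and 10 without. After removal of the GC trend it was 9 and 4 with and 2 and 9 without. For the highest transcript alone it was 9 and 1 with and 5 and 9 without. When genes were named only by a length within 3 bases or by the only coding gene at the locus, fewer genes remained. The split was then 7 and 2 of 13 with an octamer and 3 and 7 of 20 without.

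The stretches around the first octamer of the 9 genes higher in both pairs and the 2 lower in both are shown so that the sites can be compared, with a second one for Rfc3. The labels higher and lower give only the sign of the ratio in both pairs. Of these genes only Rfc3 was called, and the log2 ratio of Mcm7 was 0.01 in both pairs. Each is from RefSeq on GRCm38.p6 on the gene's strand, and capitals mark the octamer or its reverse complement.
Orc1, chr4:108579417-108579444, plus strand, higher: tcggttagtgGCGCGAAAagttttctcc
Orc3, chr4:34614966-34614993, minus strand, higher: catgcctcccTTTCCCGCacgccccgcc
Mcm3, chr1:20820276-20820303, minus strand, higher: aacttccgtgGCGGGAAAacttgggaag
Mcm7, chr5:138172031-138172058, minus strand, higher: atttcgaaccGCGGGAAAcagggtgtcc
Gins3, chr8:95633508-95633535, plus strand, higher: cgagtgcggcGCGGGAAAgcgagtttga
Pola1, chrX:93632276-93632303, minus strand, higher: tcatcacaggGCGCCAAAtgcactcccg
Rfc3, chr5:151651201-151651228, minus strand, higher: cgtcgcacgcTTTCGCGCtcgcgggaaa
Rfc3, chr5:151651191-151651218, minus strand, second octamer: tttcgcgctcGCGGGAAAactctactgt
Atad5, chr11:80089412-80089439, plus strand, higher: gctccggacgGCGGGAAAacccaattga
Clspn, chr4:126556991-126557018, plus strand, higher: ccgcgtctggGCGCGAAAgctcgaactt
Pold1, chr7:44548766-44548786, minus strand, lower: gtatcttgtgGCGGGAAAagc
Pold3, chr7:100121468-100121495, minus strand, lower: agcgaagctgTTTCCCGCcggcgggagc
In Rfc3 the octamers begin 10 bases before the RefSeq start and at the start itself. A match is a run of letters and not a measured binding site.

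**Figure D4:**
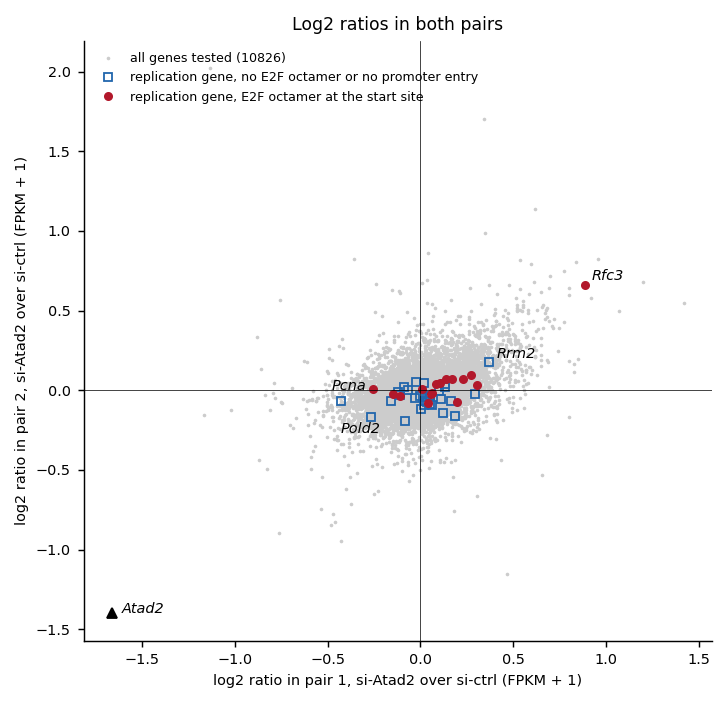
Log2 ratio of si-Atad2 over si-ctrl (FPKM plus 1) in pair 1 (x axis) against pair 2 (y axis) for 10826 genes in grey, with 46 DNA replication genes drawn as red circles where the promoter holds an E2F octamer and as blue squares where it holds none or has no entry. Rfc3 lies at 0.89 and 0.66, outside the cloud of the other replication genes, and Atad2 at -1.66 and -1.40.

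Further genes that act around the fork did not pass the test either. Of 44 listed genes for licensing control, origin firing, further polymerase subunits, the alternative clamp loader, topoisomerases and primer removal, further nucleotide supply and other MCM proteins, 37 were tested and 0 were called by limma, with 1 at an unadjusted p under 0.05 (over all genes tested, 1.5% and 15.7%). That gene was Dut, which removes dUTP, with 63.9 and 68.6 FPKM in si-ctrl and 55.1 and 64.3 in si-Atad2 (-0.15, adjusted p = 0.28). Dna2, a nuclease that trims long flaps, and Cdk1, the mitotic kinase, followed with mean log2 ratios of -0.14 and -0.12 (adjusted p = 0.35 and 0.39). The median of the 37 was -0.02, beside -0.01 over all genes tested.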

How the data were processed

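Values of 4 RNA-seq libraries of 46C ES cells carrying the tagged Atad2 were analysed, grouped by their labels. The authors ran Cuffdiff on each si-Atad2 library with its same-numbered si-ctrl library, and the authors' FPKM values, with 95% intervals, were used. Per the labels, TopHat and Cuffdiff were used and the build was mm9, without versions or settings, but the positions in the tables are those of GRCm38. The authors' deposited tables of fold changes, p-values and q-values hold tests of 1 library against 1 library and were not used.

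Of 59120 transcripts, 47207 were named from GENCODE vM21 (GRCm38), by a length within 3 bases, by the only coding gene at the locus, by the only coding gene lying at least 80% inside it, or by a length within 100 bases where any other gene was 200 bases farther. The last 2 steps were added after loci and values had been seen. Orc6, Mcm7 and Pole2 have a value only through the first of these steps, and Orc3, Orc4 and Pold2 only through the second. Without both steps 40 replication genes were tested. Transcripts of at least 200 bases were summed by gene, and 314 genes with a failed estimate were left out. Strand use by the counting is not stated, so overlapping genes are uncertain.

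Ratios were taken inside each run on the log2 scale after adding 1 FPKM, and were fitted with limma 3.58.1 in R 4.3.3 (eBayes with a trend) over genes whose mean level reached 1 FPKM. The p-values were adjusted by Benjamini-Hochberg (threshold 0.05). A fold change on this scale understates that of low genes. The ratio within a run makes the replicate number a block. It comes from the authors' runs, since libraries with the same number did not deviate together (Pearson r of their deviations -0.02 across genes). The test was tested on simulated data, where more calls were false than the nominal share. With 2 libraries against 2, an exact permutation test of 1 gene cannot go under a two-sided p of 0.33. The alternatives were other pseudocounts, TPM, median of ratios, other filters, no block, eBayes without a trend, other naming, the highest transcript alone, removal of a GC trend and leaving out libraries. Figures were drawn with Python 3.11.15 and matplotlib 3.10.9.

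The members, the lists and the rules were chosen with earlier results of these data known. Named are all members by complex, with values in each library for called members and for those with the highest or lowest level or ratio of a complex, and from the other replication genes the 3 with the largest ratios. The motifs and 50-base stretches were chosen after values had been seen.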

Additional observations from a re-analysis of the deposited data

How the results depend on the processing

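The median log2 ratio of the replication genes ranged from -0.03 to 0.05 under 19 alternatives. Not all of these could move it. Other filters on the mean, no block and eBayes without a trend leave the members' ratios as they are. Leaving out a pair gives the median of the other pair, and those medians set the upper end of the range. Rfc3 was positive under all 18 that gave it a ratio (0.66 to 0.89) and was past the threshold in 12 of the 16 that gave a test. Those of the 12 that left out a si-Atad2 library took the spread from the controls alone and say little about Rfc3. Rfc3 was not past the threshold with no filter on the mean (0.77, adjusted p = 0.37 by limma) or with transcripts of all lengths (0.77, adjusted p = 0.059). Nor was it past the threshold without si-ctrl 1 or si-ctrl 2 (0.75 and 0.79), where the si-Atad2 libraries alone gave the spread within a condition. Over the 4 libraries left out in turn it ranged from 0.68 to 0.86. Without a replicate block, in levels set across tables normalised separately, its ratio was 0.77 (adjusted p = 0.0026), and the block changed no other call among the replication genes. Atad2 stayed negative throughout (-1.70 to -1.28) and missed the threshold with no filter alone (-1.53, adjusted p = 0.30).

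Of the replication genes, 0 were called by limma with no filter, with transcripts of all lengths and by length match alone (3, 5 and 3 at an unadjusted p under 0.05). Length match alone kept only the 1062-base transcript of Rfc3, at or below 0.19 FPKM, so Rfc3 fell under the filter and was not tested. At an adjusted p of 0.1 there were 2, and leaving out single libraries gave 0 to 10. The further replication genes called were 0 to 2 over those libraries. Over all genes, 162 were called in the main test and 158 without a replicate block, against 0 with no filter (1876 at an unadjusted p under 0.05), 12 with all lengths, 28 by length match, 89 with the highest transcript alone, 325 at an adjusted p of 0.1 and 10 to 2019 without single libraries. Length match tested fewer genes (3613), and the other causes were not tested. With 1 residual degree of freedom per gene the test leans on the spread shared over genes, so calls near the threshold are less certain than their adjusted p. The authors' intervals give the counting precision, since depth is unknown.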
